A study of Homo sapiens with 12 samples.

Results

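IFT57 and 9 further genes of intraflagellar transport (IFT20, IFT46, IFT52, IFT74, IFT80, IFT81, IFT88, IFT122 and IFT140) were followed across 12 RNA-seq libraries of 2 human cancer cell lines. These are 10 of the 25343 genes in the deposited count table. All 10 passed the filter on low counts that left 14199 genes for testing, IFT57 through the line in which it is high. IFT57 was chosen by its OVK18 counts, near 0 with the control guide and higher with one WRN guide, so those values, and the gap between the lines, are described here without a test. The other 9 genes were added for their family and not for their values, and were tested.

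Intraflagellar transport is the movement of protein trains along the microtubules of the cilium, by kinesin-2 towards the tip and by cytoplasmic dynein 2 back to the base. The trains are built of an IFT-B complex, needed for outward transport and for a cilium to form, and an IFT-A complex, linked to return transport and to the entry of membrane proteins. IFT57, also known as HIPPI, is a peripheral IFT-B subunit and also binds the huntingtin-interacting protein HIP1. Most dividing epithelial and mesenchymal cells can form a single primary cilium when they rest.

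The lines were SW48, a colorectal cancer line, and OVK18, an ovarian cancer line, both expressing Cas9. Cells of each line were transduced with sgCh2-2, a guide to an intergenic stretch of chromosome 2 that serves as the control, or with sgWRN2 or sgWRN3, which target the DNA helicase gene WRN, and were harvested 72 h later. Each of the 6 groups has 2 libraries, A and B, made from messenger RNA and holding 15423162 to 32581625 counts. The labels do not say whether A and B came from separate cultures, so p-values measure the spread between these libraries, which may be technical. The sgCh2-2 groups, which carry Cas9 as well, serve as the background.

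WRN itself stood at 101 ± 14.4 CPM (SD, n = 2; CPM are counts scaled to the normalised library size) in SW48 controls, 35.6 ± 2.19 with sgWRN2 and 49.6 ± 10.3 with sgWRN3, and, in OVK18, at 35.9 ± 5.50, 21.5 ± 0.724 and 22.6 ± 0.564 CPM. The intestinal markers summed to between 214 and 256 CPM in the SW48 libraries and to between 0.174 and 0.402 CPM in the OVK18 libraries. LGALS4 and KRT20, on that list, were near 0 in both lines. The mesenchymal markers summed to between 457 and 524 CPM in OVK18 and to between 14.5 and 18.2 CPM in SW48, where HOXA11 made up most of the sum. Markers of cells with many motile cilia summed to at most 4.86 CPM in any library.

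In the window of 300 bases from 250 before to 50 after the annotated start site, IFT57 and IFT80 hold a match to the X-box pattern GTNNCCNNNGNNAC, a simplified form of the core recognised by RFX transcription factors of cilium genes. RefSeq promoter windows on GRCh38.p14 matched all 10 genes, with 12 windows because IFT74 has 3 starts. Both strands were searched, and the other 8 genes had no match. Of all 35116 promoter windows in the table, 1692 (4.82%) hold the pattern. The upstream sequence of IFT57 is shown because this gene is near 0 in one line and abundant in the other, and the IFT80 site is shown beside it. Capitals mark the match and nothing else. The IFT57 match reads on the gene's own strand and begins 30 bases before the start site, at chr3:108222441-108222454. The IFT80 match lies downstream of its start site on the opposite strand, at chr3:160399199-160399212.
IFT57 upstream, chr3:108222425-108222674, minus strand: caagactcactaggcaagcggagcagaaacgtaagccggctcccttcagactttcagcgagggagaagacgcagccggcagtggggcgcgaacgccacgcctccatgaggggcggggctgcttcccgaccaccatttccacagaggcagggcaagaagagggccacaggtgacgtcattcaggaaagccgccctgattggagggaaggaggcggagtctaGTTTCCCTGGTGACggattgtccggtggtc
IFT80 site and flanks, minus strand: tcttagaaGTCACTATGGTGACggggaggt

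These windows are reference sequence and were not read in the cells, and no binding or methylation data go with them. The IFT57 window holds 23 CG dinucleotides, and 35.8% of all promoter windows hold as many or more (median 14). Within the family the count ran from 17 in IFT20 to 44 in IFT81. IFT57 thus lies inside the range of the family, with windows of other members on both sides, and above the median of all promoters.

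IFT57 was abundant in SW48 and almost unread in OVK18, and in OVK18 it was higher in both sgWRN2 libraries than in any other library of that line. The 2 OVK18 control libraries held 4 and 8 counts of IFT57, or 0.155 and 0.248 CPM. The sgWRN2 libraries held 125 and 72 counts, or 4.38 and 3.95 CPM, and the sgWRN3 libraries 6 and 11 counts, or 0.261 and 0.427 CPM. Both sgWRN2 libraries stood above the other 4, and both sgWRN3 libraries above both controls.

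The summed reads gave a ratio of 20.4 for sgWRN2 over the control, with an exact 95% interval of 11.4 to 40.1, and of 12.1 for sgWRN2 over sgWRN3, with an interval of 7.35 to 21.1. These intervals cover counting error only. For sgWRN3 over the control the ratio was 1.69, with an interval of 0.759 to 3.87. The fitted log2 fold changes were 4.31 for sgWRN2 and 0.74 for sgWRN3. All of these values belong to the pattern for which IFT57 was picked, and they are descriptions.

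**Figure D1:**
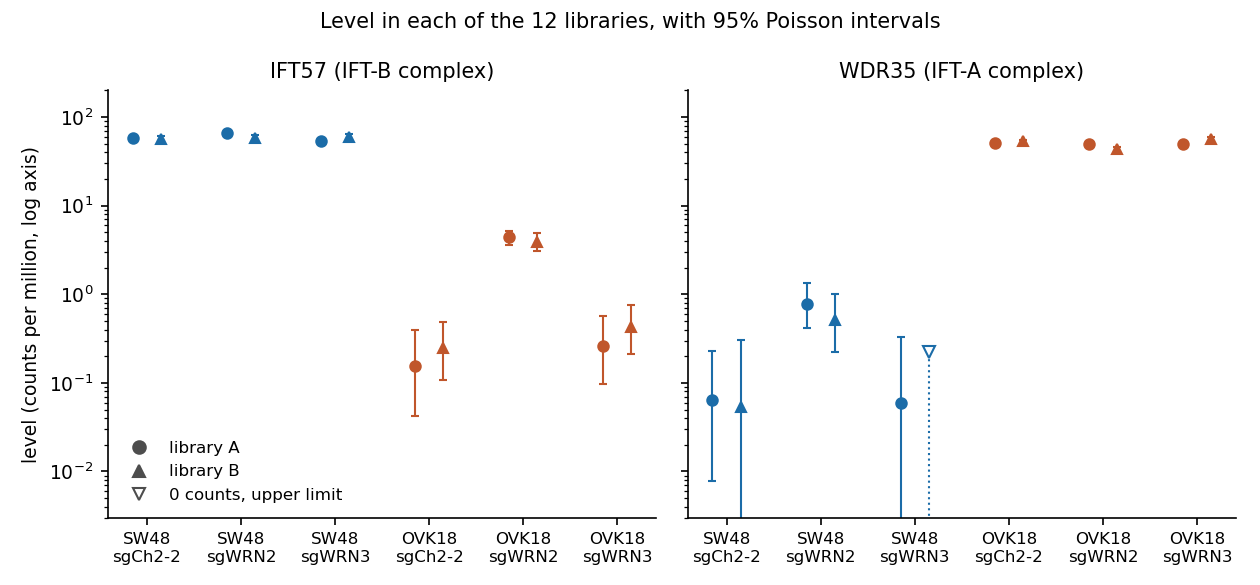
Level of IFT57 (left) and of the IFT-A gene WDR35 (right) in each of the 12 libraries, in CPM on a log axis, with 95% Poisson intervals; circles are library A, triangles library B, blue SW48 and orange OVK18, and the open triangle is the upper limit of a library with 0 counts. IFT57 lies between 53.7 and 66.4 CPM in SW48 and at 0.155 to 4.38 CPM in OVK18, and WDR35 at 43.3 to 56.1 CPM in OVK18 and at most 0.787 CPM in SW48.

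In SW48 the gene stood near 60 CPM with every guide. The control libraries were at 57.7 and 57.1 CPM, the sgWRN2 libraries at 66.4 and 58.4 CPM and the sgWRN3 libraries at 53.7 and 60.4 CPM. The sgWRN2 libraries lay just above both controls, and the sgWRN3 libraries lay on either side of them. In edgeR's quasi-likelihood test the log2 fold change was 0.12 for sgWRN2 (SE 0.129, 95% interval -0.16 to 0.40, adjusted p = 0.8) and -0.01 for sgWRN3 (SE 0.129, interval -0.29 to 0.27, adjusted p = 1). The 2 guides differed by 0.13 (SE 0.130, adjusted p = 0.916).

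Ordered by mean level, the groups ran from SW48 sgWRN2 (62.4 ± 5.71 CPM) over SW48 controls (57.4 ± 0.474) and SW48 sgWRN3 (57.1 ± 4.77) to OVK18 sgWRN2 (4.16 ± 0.308), OVK18 sgWRN3 (0.344 ± 0.117) and OVK18 controls (0.202 ± 0.0653). The 3 SW48 groups do not differ beyond their spread. The last 2 groups rest on 17 and 12 counts. The control lines differed by 271-fold in the fit. Set against SW48 controls, OVK18 read IFT57 at 0.351% with the control guide, 7.25% with sgWRN2 and 0.599% with sgWRN3. A smaller share of cells with IFT57 RNA and less RNA in each cell cannot be told apart in these bulk libraries.

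The same order was seen on the FPKM scale, which divides by transcript length. IFT57 made up between 13.5% and 14.5% of the summed FPKM of the 8 IFT-B genes in the 6 SW48 libraries. In OVK18 its share was 0.0667% and 0.0756% in the controls, 1.25% and 1.14% with sgWRN2, and 0.0904% and 0.128% with sgWRN3. With sgWRN2 its mean FPKM of 1.01 ± 0.0774 was still the lowest of the 10 genes.

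Intestinal transcripts, abundant in SW48, were at or near 0 in the OVK18 libraries in which IFT57 was read. CDX2 and HNF4A, intestinal transcription factors, and CEACAM5, an epithelial surface protein, stood at 87.4, 63.7 and 53.7 CPM in SW48 controls, levels like that of IFT57. All 3 had 0 counts in both OVK18 sgWRN2 libraries. The 9 intestinal markers together reached 0.280 and 0.384 CPM there, against 0.272 and 0.402 CPM in the OVK18 controls. These sums include KRT20 (mean 0.135 CPM with sgWRN2) and LGALS4 (0.0723 CPM), which were near 0 in SW48 too. CEACAM6 and MUC13 had 1 and 3 counts with sgWRN2 against 0 and 1 in the OVK18 controls. CDH17 and VIL1 had 0 and 2 counts against 5 and 4.

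Among the IFT genes with abundant reads in both lines, none passed the test with either guide in either line. In SW48, 0 of 10 genes were called with sgWRN2 by edgeR, where 3.08% of all genes were called, and 1 (IFT20) had an unadjusted p under 0.05. With sgWRN3 in SW48, 0 of 10 were called and none had an unadjusted p under 0.05; the background there was 0% of genes called, with 262 genes under an unadjusted p of 0.05. In OVK18, 0 of the 9 tested genes were called with sgWRN2 (background 0.796%), and IFT81 and IFT88 had an unadjusted p under 0.05. With sgWRN3 in OVK18, 0 of 9 were called (background 0%, with 116 genes under an unadjusted p of 0.05) and none had an unadjusted p under 0.05. DESeq2 and limma-voom also called none of these genes in these 4 comparisons.

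Pooling both guides gave the same count: 0 of 10 genes in SW48 (background 0.866%) and 0 of 9 in OVK18 (background 0.0282%), with none under an unadjusted p of 0.05. Against each other, the guides gave 0 of 10 calls in SW48 (background 0.944%) and 0 of 9 in OVK18 (background 0.747%), with IFT88 under an unadjusted p of 0.05 in both lines. DESeq2 and limma-voom called none here either. The median log2 fold change with sgWRN2 was 0.05 over the 10 genes in SW48 and 0.15 over the 9 in OVK18, against 0.02 and -0.00 over all genes tested. Comparisons of the 2 guides with the control share the control libraries.

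**Figure D2:**
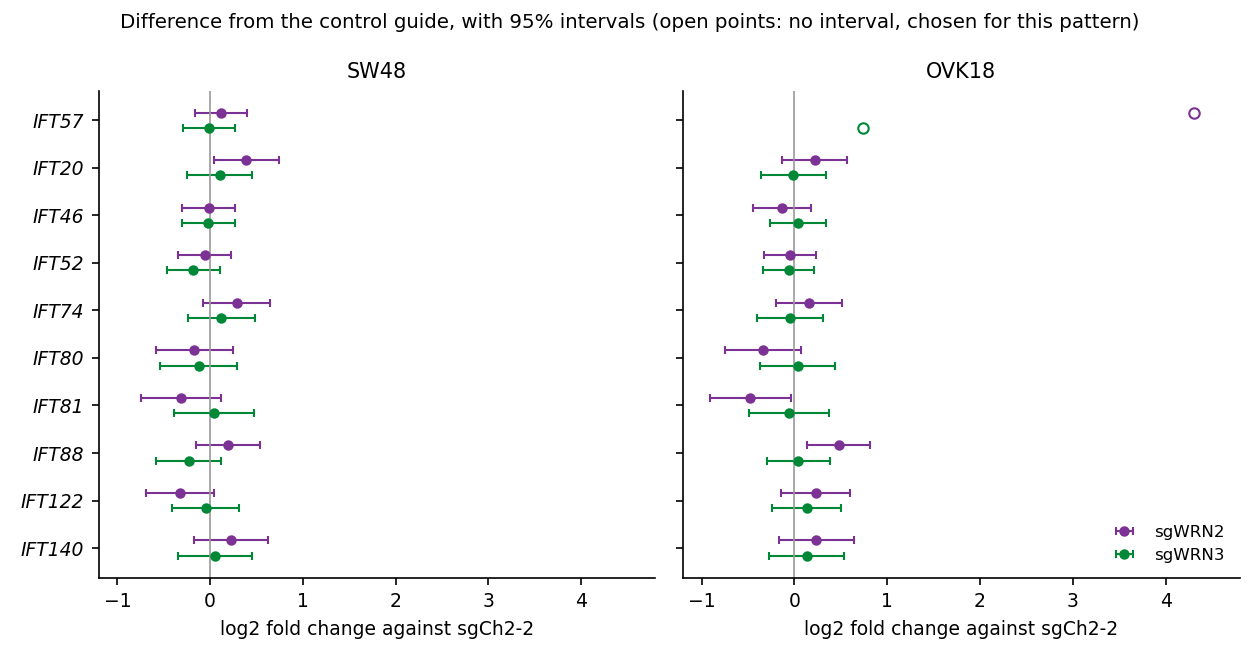
Log2 fold change of each IFT gene against the control guide in SW48 (left) and OVK18 (right), with 95% intervals from the fit; purple is sgWRN2, green sgWRN3, and open points are the IFT57 values in OVK18, which chose the gene and carry no interval. The other genes lie between -0.47 and 0.48, and IFT57 in OVK18 with sgWRN2 stands alone at 4.31.

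IFT88, a core IFT-B subunit without which cilia do not form, had the highest value of these 9 genes with sgWRN2 in OVK18. Its OVK18 levels were 31.2 and 32.8 CPM in the controls, 49.1 and 40.1 CPM with sgWRN2, and 30.5 and 35.4 CPM with sgWRN3. Both sgWRN2 libraries lay above the other 4. The log2 fold change was 0.48 (SE 0.155, adjusted p = 0.19 by edgeR), and the smallest adjusted p under any alternative was 0.0613. In SW48 the levels were 26.0 and 29.8 CPM in the controls, 34.7 and 28.8 CPM with sgWRN2 and 21.1 and 26.5 CPM with sgWRN3, and the sgWRN2 and control libraries overlap. There the log2 fold change was 0.19 (SE 0.159, adjusted p = 0.715). The difference between the lines, SW48 minus OVK18, was -0.29 (SE 0.222, adjusted p = 0.949).

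IFT20, a small peripheral subunit that also sits at the Golgi, stood at 14.9 and 16.8 CPM in SW48 controls and at 20.1 and 21.4 CPM with sgWRN2. The sgWRN3 libraries, at 15.4 and 18.6 CPM, reached over the control range. The log2 fold change with sgWRN2 was 0.39 (SE 0.161, adjusted p = 0.309 by edgeR). In OVK18, where IFT57 is nearly unread, IFT20 was read at 12.5 and 14.3 CPM in the controls, 16.1 and 15.2 CPM with sgWRN2 and 11.7 and 14.9 CPM with sgWRN3. The sgWRN2 libraries were again above both controls, with a log2 fold change of 0.22 (SE 0.160, adjusted p = 0.605). IFT20 was thus read in every OVK18 library, also where IFT57 had few reads, and was highest in the sgWRN2 libraries.

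IFT81 and IFT74 encode the coiled-coil pair that binds tubulin cargo, and their values with sgWRN2 had opposite signs. IFT81 stood at 17.7 and 24.5 CPM in OVK18 controls, 16.2 and 14.1 CPM with sgWRN2 and 17.6 and 22.9 CPM with sgWRN3. In SW48 it stood at 27.8 and 34.8 CPM, 25.2 and 25.1 CPM, and 27.8 and 36.5 CPM in the same order of guides. The sgWRN2 libraries were below both controls in each line, with log2 fold changes of -0.47 in OVK18 (SE 0.200, adjusted p = 0.317 by edgeR) and -0.31 in SW48 (SE 0.198, adjusted p = 0.581). IFT74 had log2 fold changes of 0.29 in SW48 (SE 0.165, adjusted p = 0.52) and 0.15 in OVK18 (SE 0.163, adjusted p = 0.74). Its SW48 libraries were at 46.0 and 45.4 CPM in the controls, 57.7 and 53.9 CPM with sgWRN2 and 41.5 and 57.7 CPM with sgWRN3, so that 1 sgWRN3 library equalled the higher sgWRN2 library.

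IFT80, a peripheral IFT-B subunit, varied between the libraries of a group. Its OVK18 levels were 52.5 and 62.4 CPM in the controls, 48.9 and 42.0 CPM with sgWRN2 and 53.2 and 64.7 CPM with sgWRN3. The sgWRN2 libraries lay below both controls, with a log2 fold change of -0.34 (SE 0.186, adjusted p = 0.463 by edgeR). In SW48 the controls alone ran from 39.5 to 56.1 CPM and took in both sgWRN2 libraries, at 42.3 and 42.4 CPM. For IFT80, IFT81 and IFT88 the B library was above the A library in the control and sgWRN3 groups of both lines and not, or by under 1%, in the sgWRN2 groups. For IFT81 the ratio of B to A was 1.25 and 1.38 in the SW48 and OVK18 controls and 0.996 and 0.873 with sgWRN2. The part of this A to B difference in the sgWRN2 values was not tested.

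IFT52 and IFT46, neighbouring core subunits of IFT-B, differed little between sgWRN2 and the control. IFT52 ran from 36.8 to 40.0 CPM over the 6 OVK18 libraries and from 25.3 to 32.7 CPM over the 6 SW48 libraries. IFT46 ran from 7.75 to 9.26 CPM in OVK18 and from 28.1 to 32.1 CPM in SW48. With sgWRN2 their log2 fold changes were -0.06 and -0.02 in SW48 and -0.05 and -0.13 in OVK18, with adjusted p from 0.75 to 1. With sgWRN3 in SW48, IFT52 was at -0.18 (SE 0.131, adjusted p = 1), with both libraries below both controls.

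The 2 IFT-A core subunits gave values that differed in sign between the lines in one case. IFT122 stood at 25.1 and 20.2 CPM in SW48 controls and 16.8 and 19.6 CPM with sgWRN2, and at 11.3 and 9.51 CPM in OVK18 controls and 11.4 and 13.2 CPM with sgWRN2. The sgWRN2 libraries were below both controls in SW48 (log2 fold change -0.32, SE 0.167, adjusted p = 0.451 by edgeR) and above both in OVK18 (0.23, SE 0.171, adjusted p = 0.608). The test of the difference between the lines gave -0.56 (SE 0.239, adjusted p = 0.74), where 0 of 9 genes were called and the background was 0.303%. For both guides pooled the line difference called 0 of 9 genes (background 0.0282%). IFT140 had log2 fold changes of 0.23 (SE 0.182, adjusted p = 0.691) in SW48 and 0.24 (SE 0.186, adjusted p = 0.634) in OVK18 with sgWRN2, with overlapping libraries in both.

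**Figure D3:**
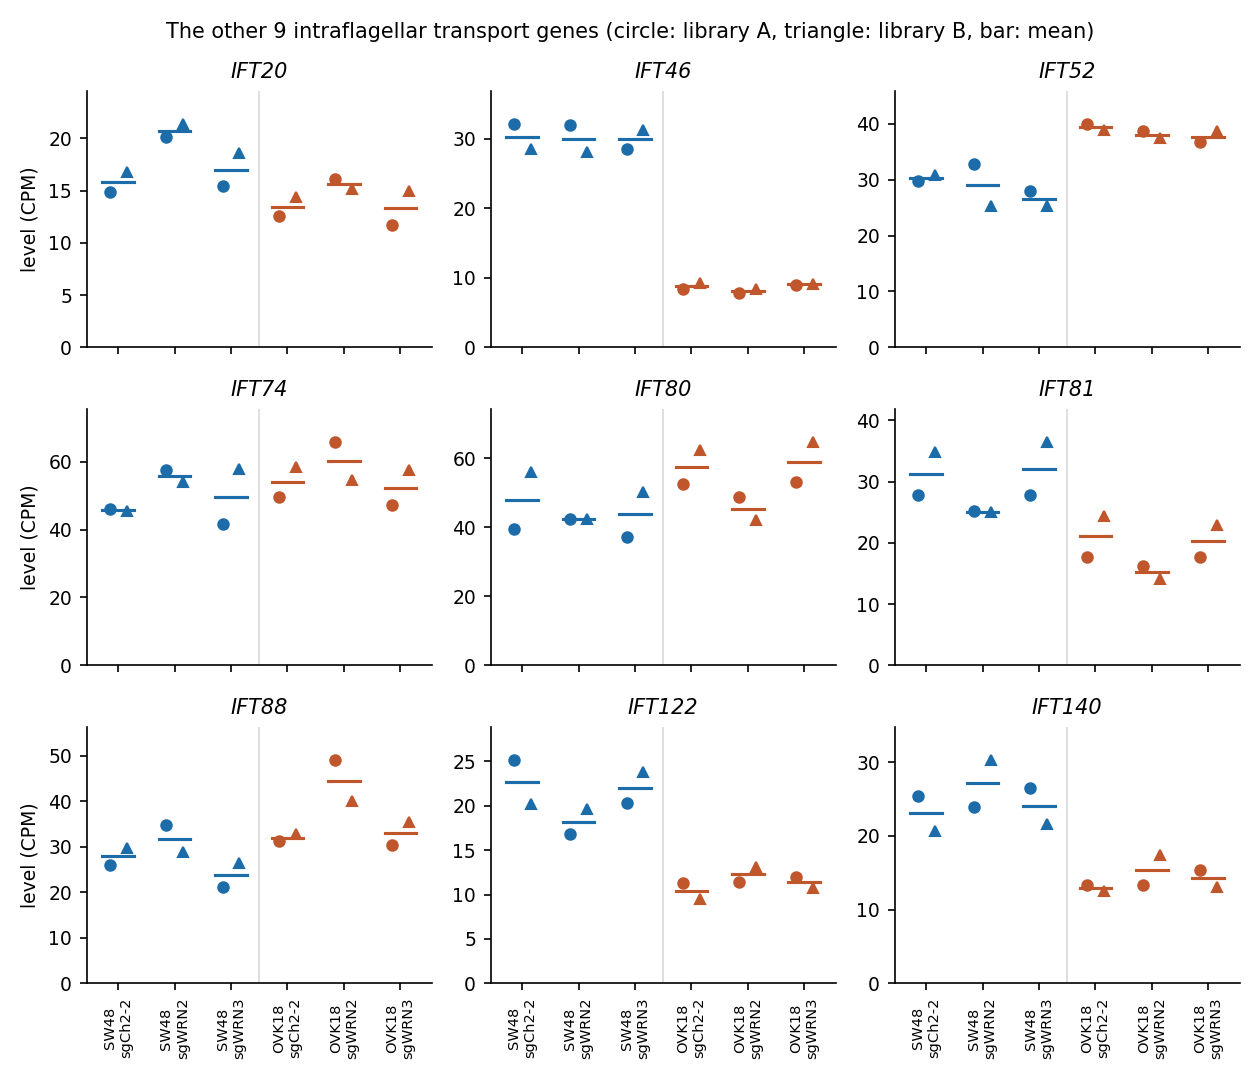
Level in CPM of the other 9 IFT genes in each library, on axes that start at 0; blue is SW48, orange OVK18, circles are library A, triangles library B and bars the mean of 2. IFT46, IFT52, IFT81, IFT122 and IFT140 have no overlap between the 6 libraries of each line. The share of all genes doing so was not computed. With the control libraries alone, 41.6% of all genes lay wholly higher in SW48 and 42.6% wholly lower. No difference between guides within a line passed the test.

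Counted by libraries that do not overlap, sgWRN2 put 3 of 10 genes above the controls (IFT57, IFT20 and IFT74) and 2 below (IFT81 and IFT122) in SW48, where 21.6% and 17.2% of all genes did so. In OVK18 it put 3 of 9 above (IFT20, IFT88 and IFT122) and 3 below (IFT52, IFT80 and IFT81), against 19.2% and 21.4% of all genes. With sgWRN3 there were 0 of 10 above and 1 below (IFT52) in SW48 (9.89% and 10.6% of all genes), and 0 of 9 above and 1 below (IFT52) in OVK18 (9.53% and 10.5%). With sgWRN2, members thus lay on both sides of the controls in each line, and so did large shares of all genes. Whether the family differs from those shares was not tested.

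Between the lines, the control libraries were compared for the 9 tested genes. IFT46 (log2 fold change of SW48 over OVK18 1.78, SE 0.136, adjusted p = 1.47e-07), IFT122 (1.13, SE 0.168, adjusted p = 6.89e-05), IFT140 (0.84, SE 0.184, adjusted p = 0.00143) and IFT81 (0.56, SE 0.196, adjusted p = 0.022) were higher in SW48. IFT52 was lower in SW48 (-0.38, SE 0.128, adjusted p = 0.018). These are 5 of 9 calls, beside 68.6% of all genes (33.9% higher and 34.7% lower in SW48), so the share called in the family is not above the background. IFT20 (0.23), IFT74 (-0.24), IFT80 (-0.27) and IFT88 (-0.20) did not pass, with adjusted p from 0.204 to 0.273. Without the OVK18 control library A, 3 of 9 were called, since IFT81 (0.34, adjusted p = 0.208) and IFT52 (-0.38, adjusted p = 0.067) no longer passed. IFT81 also did not pass without SW48 control library B (0.38, adjusted p = 0.165). IFT52 did not pass without SW48 control A (-0.36, adjusted p = 0.0735) or OVK18 control B (-0.41, adjusted p = 0.0505), with a replicate block (-0.31, adjusted p = 0.101), or on the FPKM table (adjusted p = 0.0782 and 0.0801).

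Per length of transcript, IFT57 was in the upper group of the family in SW48. The FPKM of SW48 controls ran from IFT74 (17.2 ± 0.902), IFT20 (16.1 ± 1.19), IFT52 (15.0 ± 0.209), IFT46 (14.9 ± 1.83) and IFT57 (14.2 ± 0.544) to IFT81 (9.07 ± 0.927), IFT80 (8.71 ± 1.98), IFT88 (6.98 ± 0.371), IFT122 (4.34 ± 0.863) and IFT140 (3.38 ± 0.623). Neighbours among the first 5 do not differ beyond their spread, and the step from IFT57 to IFT81 exceeds it. In OVK18 controls the order was IFT52 (18.4 ± 0.709), IFT74 (18.4 ± 1.36), IFT20 (13.7 ± 1.23), IFT80 (10.3 ± 0.956), IFT88 (7.77 ± 0.133), IFT81 (5.70 ± 1.07), IFT46 (4.12 ± 0.271), IFT122 (1.91 ± 0.305), IFT140 (1.88 ± 0.150) and IFT57 (0.0559 ± 0.00806). In these OVK18 controls every member but IFT57 was thus read at over 1 FPKM.

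The rest of the ciliary transport machinery was taken from lists of the other IFT-B and IFT-A subunits, the BBSome (the adaptor that carries membrane cargo), the kinesin-2 and dynein-2 motors and the transition zone (the gate at the cilium's base). With sgWRN2 in OVK18, 0 of 9, 0 of 5, 0 of 10, 0 of 10 and 0 of 15 tested genes were called by edgeR in that order, where 0.796% of all genes were called. In SW48, with 3.08% of all genes called, the counts were the same but for the IFT-A and BBSome lists. In the IFT-A list 0 of 4 genes were called, with WDR35 left out. In the BBSome list none was called, with BBS5 left out because it passed the filter on low counts only through OVK18. With sgWRN3 none was called in either line, and neither was any other gene. List medians of the log2 fold change with sgWRN2 ran from -0.04 to 0.15 in SW48 and from -0.08 to 0.06 in OVK18. These medians include WDR35 and BBS5. Hedgehog pathway genes, whose signal passes through the primary cilium, gave 0 of 6 calls with each guide in each line. Few reads limit these counts. HHIP had 1 count in each OVK18 group. In SW48, SMO had 12, 11 and 3 counts with sgCh2-2, sgWRN2 and sgWRN3, and GLI1 had 24, 11 and 26. None of the 7 tested transcription factors of cilium genes, or of the 4 genes linked to IFT57 in cell death (HIP1, CASP8, HTT and BLOC1S2), was called with either guide. Among these factors, MCIDAS had 7, 4 and 2 counts in the OVK18 groups in the same order of guides. Genes with so few counts in a line could hardly be called there.

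The IFT-A gene left out is WDR35, which encodes the subunit IFT121 and was nearly unread in SW48. Its SW48 counts were 2 and 1 in the controls, 13 and 8 with sgWRN2, and 1 and 0 with sgWRN3, or 0.0641 and 0.0540, 0.787 and 0.510, and 0.0596 and 0 CPM. Both sgWRN2 libraries were above the other 4. In OVK18 it stood at 51.2 and 53.2 CPM in the controls, 50.3 and 43.3 CPM with sgWRN2 and 49.3 and 56.1 CPM with sgWRN3. WDR35 and IFT57 were thus each near 0 in 1 line, abundant in the other, and higher with sgWRN2 in the line where near 0. IFT57 was chosen for this pattern, and the SW48 values of WDR35 rest on few reads.

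For WDR35 in SW48 the fitted log2 fold change with sgWRN2 was 3.32. It is a description, since WDR35 was named for this difference and passed the filter on low counts only through OVK18. The ratio of summed reads was 10.8, with an exact 95% interval of 3.23 to 56.6 from 21 against 3 counts. Against sgWRN3 the log2 fold change was 4.21, and the ratio of reads 21.7 (interval 3.50 to 899) from 21 against 1 count. Both values rest on few reads, and WDR35 did not pass the filter when the 6 SW48 libraries were fitted alone. The first was 3.42 without control library A and 2.97 without sgWRN2 library A. On the FPKM table with a pseudocount of 1 it was 0.09, on the log2(value + 1) scale. The second was 4.43 by DESeq2, 4.20 with a replicate block and 0.09 on that FPKM scale. It was 3.86 and 4.47 without sgWRN2 library A or B, and 6.90 and 3.31 without sgWRN3 library A or B.

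In SW48 with sgWRN2, WDR35 reached 0.649 ± 0.195 CPM, where OVK18 controls stood at 52.2 ± 1.40 CPM. COL3A1, a fibrillar collagen at 436 CPM in OVK18 controls, was at 0.0622 CPM in the same SW48 libraries. PDGFRA, a growth factor receptor at 22.4 CPM in OVK18 controls, had 0 counts there. These are 2 of the 6 listed mesenchymal markers, which summed to 16.9 and 18.2 CPM there and to 15.3 and 16.6 CPM in SW48 controls. HOXA11 made up most of these sums, at a mean of 17.4 against 15.8 CPM. WT1 had 1 count against 0, and COL1A2 and TWIST1 had 0 in both. BBS5, a BBSome subunit, was a further gene of these lists near 0 in SW48, chosen for mention after its values were seen. It had 0 counts in both SW48 control and both sgWRN3 libraries, 0 and 3 counts with sgWRN2, and 11.0 ± 0.0938 CPM in OVK18 controls, at least 183-fold higher than the floor of 3 counts over the 2 SW48 control libraries. No test in SW48 is given for it, since it passed the filter only through OVK18.

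Other parts of the train were compared between the control libraries of the lines, where 33.9% of all genes were higher and 34.7% lower in SW48. The genes named here were picked after their values were seen. Of the other IFT-B genes 5 of 9 were higher in SW48, among them TTC26 (log2 fold change 2.01, SE 0.118, adjusted p = 1.03e-08), IFT22 (1.80) and IFT172 (1.28), and 2 were lower. The 2 lower ones, TTC30A (-2.51) and TTC30B (-3.60), are near-identical copies between which reads may be split, so their separate values are uncertain. Of the other IFT-A genes none was higher in SW48, and TTC21B and WDR19 were lower. WDR35 was left out here, since it passed the filter on low counts only through OVK18. Of the motors 3 of 10 were higher and 3 lower, with the dynein-2 heavy chain DYNC2H1 lower in SW48 (-2.49, SE 0.150, adjusted p = 1.38e-08).

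To see how IFT57 stood among genes like it in level, genes under 0.5 CPM in the OVK18 controls and over 10 CPM in the SW48 controls were collected, with these limits set after the values were seen. There were 425 such genes. Their median level in OVK18 was 0.0464 CPM in the controls, 0.0723 CPM with sgWRN2 and 0.0388 CPM with sgWRN3. With sgWRN2, 6 of them exceeded 1 CPM, and with sgWRN3 none did. Since IFT57 was chosen by this difference, its place among them is a description: the difference between sgWRN2 and the control was 3.96 CPM for IFT57, followed by FAM171A1 (1.06 CPM), the desmosome gene DSP (1.06 CPM) and HTATIP2 (0.990 CPM). In the reverse group, 508 genes low in SW48, 14 exceeded 1 CPM with sgWRN2 and none with sgWRN3. The median level of the 508 genes in SW48 was 0.0270 CPM in the controls, 0.0605 CPM with sgWRN2 and 0.0298 CPM with sgWRN3. BEX4 (5.67 CPM), EID1 (3.69 CPM) and CBS (3.43 CPM) led by the difference between sgWRN2 and the control, and WDR35 ranked 21 (0.589 CPM).

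**Figure D4:**
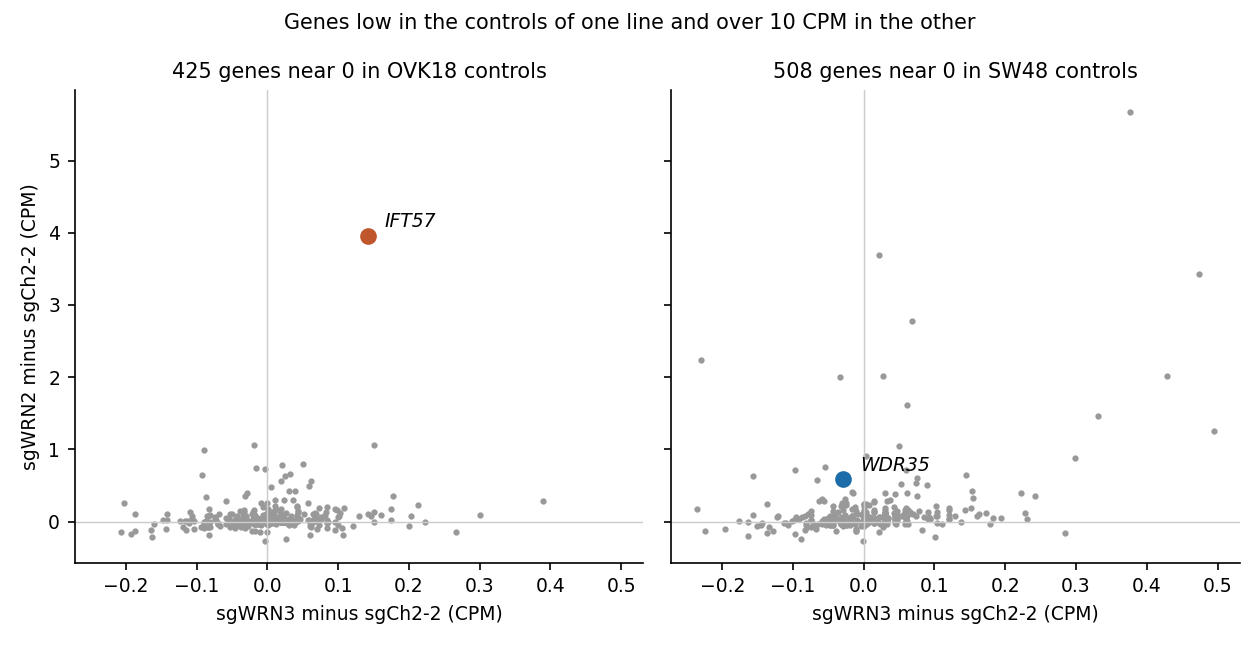
Difference in mean CPM from the control guide with sgWRN3 (horizontal) and sgWRN2 (vertical) for 425 genes near 0 in OVK18 controls (left) and 508 genes near 0 in SW48 controls (right), each over 10 CPM in the controls of the other line; each point is a gene. IFT57 stands at 3.96 CPM with sgWRN2 and 0.143 CPM with sgWRN3, above all other points on the left, while WDR35 at 0.589 CPM lies below a number of genes on the right.

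The genes beside IFT57 on chromosome 3 were followed in the same libraries, the neighbours being taken from RefSeq's GRCh38.p14 order. In OVK18, 0 of the 5 tested neighbours were called with sgWRN2, where 0.796% of all genes were called. In SW48 the same guide gave 1 call of 5, KIAA1524, where 3.08% of all genes were called. CD47, the adjacent gene for a cell-surface signal against phagocytosis, was also low in OVK18, at 5.14 ± 1.18 CPM against 69.0 ± 11.6 CPM in SW48 controls (log2 fold change 3.73, SE 0.196). Its OVK18 level with sgWRN2 was 5.93 ± 1.48 CPM, within the spread of the controls. The other neighbours did not all share its line difference. DZIP3 stood at 95.7 CPM in OVK18 controls against 22.9 CPM in SW48 controls. In the same order KIAA1524 stood at 58.4 and 52.5 CPM, BBX at 207 and 252 CPM, and MYH15 at 0.0853 and 1.18 CPM. Between these controls 33.9% of all genes were called higher and 34.7% lower in SW48. KIAA1524, which encodes CIP2A, an inhibitor of protein phosphatase 2A, was lower with sgWRN2 in SW48, at 30.3 and 26.3 CPM against 46.5 and 58.6 CPM in the controls (log2 fold change -0.89, SE 0.167, adjusted p = 0.0125 by edgeR). That call was lost without control library B (-0.75, adjusted p = 0.0881), without sgWRN2 library A (-0.99, adjusted p = 0.0698) or B (-0.81, adjusted p = 0.15), and with a replicate block (-0.88, adjusted p = 0.0512).

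By correlation of log2 CPM over all 12 libraries, the 6 genes most like IFT57 among 12053 compared were EGR1, PER2, FHDC1, SYTL2, PRRG2 and DPCD, with r from 0.990 to 0.992. Over the 6 OVK18 libraries, PLK2, ANKEF1, ZNF596 and AKAP13 were among the most alike, with r from 0.994 to 0.999. These libraries share their line and guide, so the first r follows the gap between lines and the second the sgWRN2 pair. The growth-factor-induced transcription factor EGR1 was read at 67.5 ± 1.17, 199 ± 11.2 and 71.2 ± 2.40 CPM in OVK18 with sgCh2-2, sgWRN2 and sgWRN3, and PLK2, a polo-like kinase, at 6.33 ± 0.379, 12.8 ± 0.283 and 7.23 ± 0.367 CPM. Within the family, r with IFT57 over the 6 OVK18 libraries ran from 0.92 for IFT88 to -0.71 for IFT80. NEFM, a neurofilament gene, was likewise highest with sgWRN2: OVK18 read 28.2 ± 2.86 CPM with that guide and 0.640 CPM in the controls, and SW48 read 27.8 ± 9.42 and 0.891 CPM.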

How the data were processed

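Raw counts per gene were deposited by the authors. Per the submitters' processing notes the tools were bcl2fastq 2.18 and STAR 2.5, and the build was hg19. A second deposited table holds FPKM; its unit is read from its values and from Cufflinks 2.2.1 in those notes. Annotation and strand settings are not given in the sources used here, so reads from overlapping genes cannot be told apart. The 92 spike-in features, all at 0, were left out, and 28 symbols turned into dates were not named.

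Counts were fitted in R 4.3.3 with edgeR 4.0.16 (TMM, filterByExpr, 1 coefficient per group, robust quasi-likelihood, 6 residual degrees of freedom). Adjusted p-values are Benjamini-Hochberg over all 14199 genes, called under 0.05. Standard errors are the log2 fold change over the square root of F. CPM use TMM library sizes, and Poisson and ratio intervals are exact at 95 percent. Alternatives were other scalings and filters, DESeq2 1.42.0, limma 3.58.1 (voom, and log2(FPKM + 1 or + 0.1)), 1 line alone, a replicate block, and leaving out libraries.

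Members and gene lists were chosen with earlier results of these data known. The line difference for sgWRN2 alone, the read ratios and the group of low genes were added after the values were seen. Named genes were all members, list genes called with a single guide (up to 4 per comparison), the 6 genes most like IFT57 by Pearson correlation of log2 CPM (prior count 2) over 12 and over 6 libraries, and WRN and NEFM; 2 genes so chosen are not reported here. The steps were tested on simulated counts. Replicate libraries differed beyond counting error in every group (chi-square per gene 7.92 to 23.0).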

Additional observations from a re-analysis of the deposited data

Results flagged for a closer look

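The fitted log2 fold change of WDR35 with sgWRN2 was 3.47 higher in SW48 than in OVK18, in a comparison added after the values were seen. It rests on 3 control counts and 21 sgWRN2 counts in SW48. Since WDR35 passed the filter on low counts only through OVK18, the value is a description. The difference ranged from 3.12 to 3.71 when 1 library was left out. It was 3.54 with a replicate block, and 0.22 and 0.82 on the FPKM scales with pseudocounts of 1 and 0.1.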

How the results depend on the processing

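With 2 libraries per group, the fit can miss moderate changes, and few counts limit IFT57 in OVK18 controls (12) and WDR35 in the SW48 groups (1 to 21). The count of called members stayed within 1.5 times its value under every alternative run, except in the control comparison, where 5 calls became 3 without the OVK18 control library A. The letters A and B are not stated to pair the libraries: differences between A and B correlated at 0.41 and 0.39 between the control and sgWRN3 groups, and at -0.23 to 0.01 in the pairs with sgWRN2. A replicate block left the members called with a guide at 0. For IFT57 with both guides in OVK18 the log2 fold change of 2.52 was 0.48 and 1.54 on the FPKM scales, 0.74 without the sgWRN2 libraries and 2.93 without OVK18 control B; with sgWRN2 alone 4.31 became 0.93 and 2.83 on the FPKM scales and 4.72.

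Several members not called changed sign with both guides pooled. Without the sgWRN2 libraries, and then also with a replicate block, the log2 fold changes were -0.00788 and -0.0128 for IFT57 and 0.0424 and 0.0347 for IFT81 in SW48, and in OVK18 -0.0147 and -0.0136 for IFT20, 0.0402 and 0.0388 for IFT46, -0.0488 and -0.0495 for IFT74, and 0.0367 and 0.0363 for IFT80. With 1 library left out, values in SW48 ranged from -0.113 to 0.0578 for IFT46, -0.397 to 0.112 for IFT80, -0.309 to 0.0201 for IFT81, -0.132 to 0.0656 for IFT88 and -0.00735 to 0.290 for IFT140. In OVK18 they ranged from -0.115 to 0.0409 for IFT46 and -0.0592 to 0.186 for IFT74. The causes were not tested.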

Other observations

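RFX3, a transcription factor of cilium genes, differed between the deposited tables, and was chosen for mention after its values were seen. On the FPKM scale it stood at 5.72 ± 0.275 in OVK18 controls, 10.8 ± 0.821 with sgWRN2 and 6.32 ± 0.00674 with sgWRN3 (SD, n = 2), and at 3.65 ± 0.000205, 5.58 ± 0.312 and 3.49 ± 0.160 in SW48. On the count scale the same groups stood at 47.7 ± 3.70, 58.1 ± 7.51 and 53.2 ± 1.86 CPM in OVK18 and at 32.1 ± 4.08, 39.5 ± 4.15 and 30.9 ± 2.24 CPM in SW48. The sgWRN2 log2 fold change of the counts was 0.29 in OVK18 (SE 0.135, adjusted p = 0.373 by edgeR) and 0.31 in SW48 (SE 0.139, adjusted p = 0.376), and neither passed. Why the tables differ for this gene was not tested.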
